A study of Mus musculus with 39 samples.

Results

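The mammary keratins and Trp63 are 10 of the 20520 mouse genes in the table and were taken by symbol. They comprise 5 keratins of basal epithelium (Krt5, Krt14, Krt15, Krt17 and Krt6a), 4 keratins of luminal or simple epithelium (Krt7, Krt8, Krt18 and Krt19) and Trp63. Their levels were followed in PB2 mouse breast tumors that carried FL-HER2, the full-length receptor, or p95HER2, a truncated HER2 without most of its extracellular part. They were collected at 10 or 22 days after implantation, with 10 libraries of each construct at day 10, 9 of FL-HER2 at day 22 and 10 of p95HER2 at day 22. All groups share the PB2 background, and no tumor without a HER2 construct is among these libraries. The labels give no host strain, sex or age of the animals, and they do not say whether a library is 1 tumor from 1 animal. The column names of 8 FL-HER2 day 10 libraries carry a number of 5 digits, while all other names carry 3 digits, so these 8 may be pools. For 1 of the 8, replicate 8, the sample title gives a number with fewer digits than the column name, and the column name was used. For this reason p-values weigh differences only against the variation among these libraries, part of which may be technical.

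Keratins form the intermediate filaments of epithelial cells as obligate pairs of a type I and a type II protein. In the mammary gland the outer basal or myoepithelial layer is known for the pair of Krt5 and Krt14, and the inner luminal layer for the pair of Krt8 and Krt18, with Krt7 and Krt19 as further partners. Trp63 encodes p63, a transcription factor of the p53 family that maintains basal and stratified epithelia and is known to activate basal keratin genes.

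All 10 genes passed the filter of 1 CPM (read counts scaled to library size) in at least 9 libraries, as did 13650 genes in all. The type II keratin genes Krt5, Krt6a, Krt7 and Krt8 lie on chromosome 15 of GRCm38 (mm10), together with the type I gene Krt18, which is at 102028180 to 102032027. The other type I genes Krt14, Krt15, Krt17 and Krt19 lie on chromosome 11, between 100131758 and 100261029. Trp63 spans 25683763 to 25892102 on chromosome 16. Paralogs share sequence, and how reads that fit several genes were counted is not given in the sources used here. Of the distinct 50-base stretches in the coding transcripts of Krt6a, 49.5% also occur in transcripts of other genes, 43.6% in those of Krt6b. The shared part is 26.9% for Krt8, all with the pseudogene Krt8-ps, 14.4% for Krt14, 8.52% for Krt5 and 3.99% for Krt17, and it is under 1% for the other 5. Values of Krt6a, Krt8 and Krt14 are the least certain in this respect.

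RefSeq promoter windows (GRCm38.p6) were matched for 5 of the 10 genes, and the start sites of 4 of these lie within 200 bases of the start of a GENCODE coding transcript. The distance is 7 bases for Krt5, 1 for Krt7, 36 for Krt18 and 140 for Krt8. The windows of Krt5, a basal type II keratin, of Krt7, the luminal keratin that differed between the constructs at both times, and of Krt18, a luminal type I keratin, are shown because the genes changed to different degrees with time. Each covers the gene's own strand up to the start site or up to the first base of a coding transcript, and capitals mark the motif matches. The Krt5 window is chr15:101712906-101713155 on the minus strand, that of Krt7 is chr15:101412153-101412401 on the plus strand and that of Krt18 is chr15:102027966-102028179 on the plus strand.
Krt5: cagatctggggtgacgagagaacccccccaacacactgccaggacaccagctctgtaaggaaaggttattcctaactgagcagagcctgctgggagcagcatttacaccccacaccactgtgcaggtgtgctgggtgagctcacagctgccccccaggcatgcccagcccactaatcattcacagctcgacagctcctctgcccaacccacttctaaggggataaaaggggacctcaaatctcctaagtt
Krt7: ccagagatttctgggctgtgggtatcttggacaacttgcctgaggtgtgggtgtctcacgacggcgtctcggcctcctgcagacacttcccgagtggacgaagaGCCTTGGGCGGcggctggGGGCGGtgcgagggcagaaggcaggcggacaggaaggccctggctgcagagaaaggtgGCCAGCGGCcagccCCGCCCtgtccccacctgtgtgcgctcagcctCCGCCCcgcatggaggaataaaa
Krt18: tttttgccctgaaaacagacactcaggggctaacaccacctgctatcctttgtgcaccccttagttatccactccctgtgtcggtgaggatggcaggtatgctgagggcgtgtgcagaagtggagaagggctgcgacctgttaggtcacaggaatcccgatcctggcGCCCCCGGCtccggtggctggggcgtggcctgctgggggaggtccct
Motifs were searched on both strands over the 250 bases before the start site. They were the AP-1 site TGANTCA, the TATA box TATAAA, the GC box GGGCGG and the AP-2 site GCCNNNGGC. The Krt7 window held 4 GC boxes, at -141, -128, -56 and -24, and 2 AP-2 matches, at -146 and -70, of which the one at -146 overlaps the GC box at -141. The Krt18 window held 1 AP-2 match, at -83, and no match was found in the windows of Krt5 or Krt8. Among 32851 RefSeq windows of the same length, 32.7% held a GC box, 13.7% an AP-2 match, 12.4% a TATA box and 6.75% an AP-1 match. Over the same 250 bases, G and C made up 66.0% for Krt7, 60.4% for Krt18, 58% for Krt8 and 56.0% for Krt5. Of these 250 bases, 140 for Krt8, 36 for Krt18 and 1 for Krt7 lie in exons of coding transcripts. The G and C shares and the motif search thus include transcribed bases that the windows shown leave out. The start site of the Krt14 window lies inside the gene, 1518 genomic bases from the nearest coding transcript start. This window was left out.

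The libraries held 21772259 to 44427621 reads. Epcam and Cdh1, surface and junction proteins of epithelium, were at medians of 599 to 720 CPM and 329 to 393 CPM in the 4 groups. Skin RNA set 11 libraries apart (called skin-high below), namely 2 of 10 FL-HER2 and 5 of 10 p95HER2 libraries at day 10 and 1 of 9 and 3 of 10 at day 22. Their skin score, the mean log2 value of the 9 tested of 23 listed epidermis and hair follicle genes, was 6.41 or higher, against 4.99 or lower in the other 28. The summed level of the 22 listed skin genes in the table ran from 34.7 to 701 CPM in FL-HER2 at day 10, from 19.7 to 64.4 CPM at day 22, from 25.7 to 492.6 CPM in p95HER2 at day 10 and from 23.8 to 174 CPM at day 22. None of these 22 genes was at 0 in all 39 libraries, which was not checked group by group. Epidermis expresses Krt5, Krt14, Krt15, Krt17 and Trp63 itself. Skeletal muscle genes took a median of 1.73% of reads in FL-HER2 at day 10, 0.226% at day 22, 0.0243% in p95HER2 at day 10 and 0.232% at day 22. Summed fibroblast markers, with all 10 listed genes tested, were at medians of 16379 and 3441 CPM in FL-HER2 at days 10 and 22 and of 7519 and 2588 CPM in p95HER2. The part of muscle and fibroblast RNA in the results below was not tested beyond a muscle covariate. In such bulk libraries, fewer cells of a type and less RNA per cell cannot be told apart.

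The basal keratins and Trp63 were lower at day 22 than at day 10 in tumors of both constructs, except Krt15 in p95HER2. Krt14 fell 9.53-fold in FL-HER2 and 4.6-fold in p95HER2, and Trp63 fell 9.17-fold and 5.55-fold, while the luminal pair partner Krt8 had medians between 583 and 622 CPM. In FL-HER2, 9 of the 10 genes were lower at day 22 and Krt8 did not pass the test, with 30.6% of all tested genes lower, 20.7% higher and 51.4% called in either direction. In p95HER2, 8 of the 10 were lower and 1 was higher, against 18.6% lower, 16.6% higher and 35.2% called among all tested genes. The ranges of the day 10 and day 22 libraries did not overlap for 7 of the 10 genes in FL-HER2 and for 4 in p95HER2, as against 9.25% and 7.17% of all tested genes. The median log2 change of the 10 genes was -1.96 in FL-HER2 and -1.51 in p95HER2, and that of all tested genes was -0.03 and 0.00.

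Krt14, the type I partner of Krt5, had the highest level per transcript length of the basal keratins at day 10. It ran from 115 to 205 CPM with a median of 163 in FL-HER2 at day 10 and from 10.0 to 31.2 CPM with a median of 21.8 at day 22. The log2 change was -3.25 ± 0.18 (SE, limma, adjusted p = 8.27e-17), and every day 22 library lay below every day 10 library. In p95HER2 the median was 143 CPM at day 10, with a range of 101 to 162, and 30.0 CPM at day 22, with a range of 17.4 to 51.4 (-2.20 ± 0.18, adjusted p = 1.14e-12). Here too the ranges were apart.

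Krt5, the type II partner, was far below Krt14, also per transcript length. It ran from 17.1 to 69.3 CPM around a median of 22.6 in FL-HER2 at day 10 and from 1.93 to 16.1 CPM around 8.41 at day 22. Its log2 change was -1.93 ± 0.37 (adjusted p = 3.36e-05), with ranges that just failed to meet. In p95HER2 it ran from 16.1 to 52.0 CPM around 25.8 at day 10 and from 2.59 to 28.3 CPM around 8.13 at day 22, so that the ranges overlapped (-1.87 ± 0.36, adjusted p = 5.71e-05). The highest Krt5 values of FL-HER2 at day 10 and of p95HER2 at both days were in skin-high libraries. Without the 11 skin-high libraries the falls were -1.72 in FL-HER2 and -1.96 in p95HER2. Both passed the test.

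Trp63 followed a time course like that of Krt14 at a lower level per transcript length. In FL-HER2 it ran from 25.1 to 43.1 CPM around a median of 28.1 at day 10 and from 1.92 to 5.99 CPM around 3.32 at day 22. The log2 change was -3.20 ± 0.18 (adjusted p = 9.85e-17). In p95HER2 the values were 13.9 to 32.1 CPM around 24.2 at day 10 and 2.39 to 5.81 CPM around 4.96 at day 22 (-2.47 ± 0.18, adjusted p = 4.80e-14). In neither construct did a day 22 library reach the lowest day 10 library. The skin-high libraries lay inside the range of the others in FL-HER2 at day 10, and without them the changes were -3.14 and -2.43. Of the other p53 family genes, Trp53 was higher at day 22 (0.40 ± 0.06 with adjusted p = 4.77e-07 for FL-HER2, 0.20 ± 0.06 with adjusted p = 0.00592 for p95HER2), and Trp73 was too low to be tested, with at most 0.654 CPM in any library.

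Krt17 and Krt6a, keratins known from wounded and stressed epithelium, were at low levels. Krt17 ran from 4.07 to 10.0 CPM around a median of 7.02 in FL-HER2 at day 10 and from 1.34 to 3.12 CPM around 1.73 at day 22 (-1.98 ± 0.19, adjusted p = 8.29e-11). In p95HER2 it ran from 8.08 to 13.8 CPM around 10.4 at day 10 and from 1.74 to 7.60 CPM around 4.27 at day 22 (-1.38 ± 0.19, adjusted p = 1.94e-07). The ranges were apart in both constructs. Krt6a was at 2.25 to 14.6 CPM, median 4.15, in FL-HER2 at day 10 and at 0.0293 to 1.06 CPM, median 0.336, at day 22. The lowest of these libraries held 1 read of it, and the log2 change of -4.28 ± 0.44 (adjusted p = 2.63e-10) depends on the added 1 at such counts. In p95HER2, Krt6a was at 2.92 to 10.1 CPM, median 3.86, at day 10 and at 0.513 to 4.84 CPM, median 1.29, at day 22, with overlapping ranges (-1.63 ± 0.43, adjusted p = 0.00257).

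Krt15, a type I keratin of basal cells, differed from the other basal keratins. In FL-HER2 it ran from 76.3 to 106 CPM around a median of 94.4 at day 10 and from 55.6 to 81.4 CPM around 62.3 at day 22 (-0.57 ± 0.13, adjusted p = 0.000498). In p95HER2 it ran from 31.8 to 62.6 CPM around 38.3 at day 10 and from 28.0 to 78.7 CPM around 52.9 at day 22, and the rise of 0.33 ± 0.13 passed the test narrowly (adjusted p = 0.0448). The ranges overlapped in both constructs. The rise was not called without the skin-high libraries (0.24, adjusted p = 0.342), without a filter on low values (adjusted p = 0.0616), in a fit of the p95HER2 groups alone (adjusted p = 0.0914) or with the skin score as a covariate (adjusted p = 0.0746). It was also lost in 15 of 39 fits that left out 1 library. With a term for 5 or 3 digits in the name (the digits term), which leaves the day 10 level of FL-HER2 to 2 libraries, the fall in FL-HER2 was not called (-0.30, adjusted p = 0.358).

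**Figure D1:**
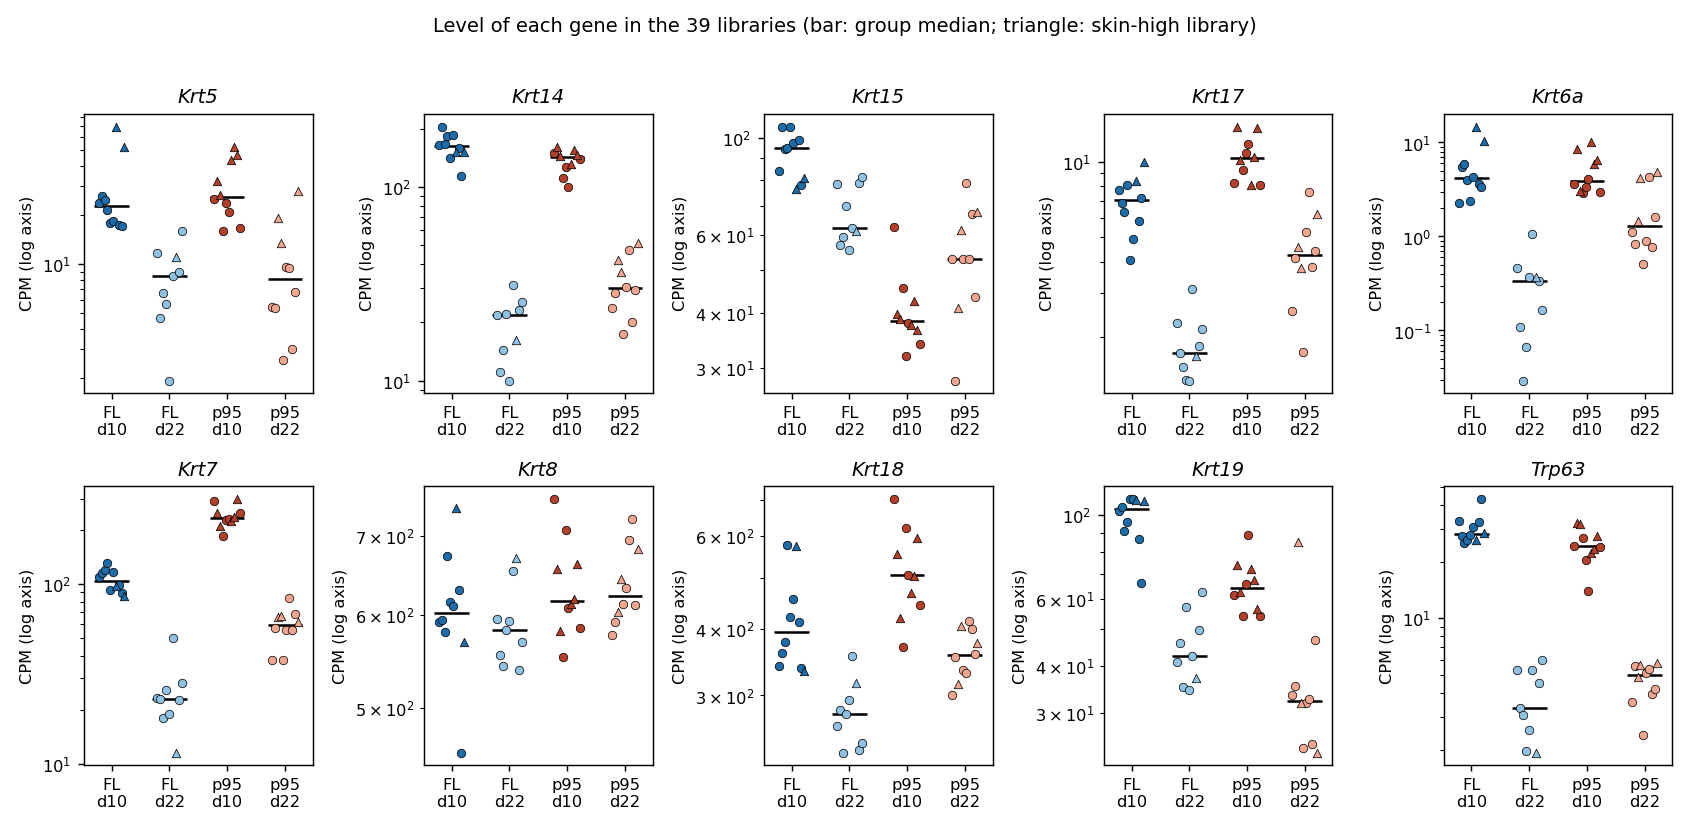
Level of each of the 10 genes (CPM, log axis) in the FL-HER2 (FL) and p95HER2 (p95) libraries at days 10 and 22 (d10, d22), with 1 point per library, a bar at the group median and triangles for the 11 skin-high libraries. Krt14 and Trp63 fall clearly apart by day in both constructs, while Krt8 stays between 459 and 752 CPM in all libraries.

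Of the luminal keratins, Krt7, Krt18 and Krt19 fell with time in both constructs, Krt7 the most. Krt7, a type II keratin of simple epithelia, ran from 86.5 to 131 CPM around a median of 105 in FL-HER2 at day 10 and from 11.5 to 50.1 CPM around 22.9 at day 22 (-2.31 ± 0.16, adjusted p = 2.84e-14). In p95HER2 it ran from 186 to 298 CPM around 233 at day 10 and from 37.8 to 83.8 CPM around 59.4 at day 22 (-2.12 ± 0.16, adjusted p = 1.52e-13). Day 10 and day 22 libraries were apart in both constructs. In both constructs the log2 change of Krt7 lay between those of Krt5 and Krt14, and its size exceeded those of Krt8, Krt18 and Krt19.

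Krt19, a type I keratin known for lacking most of the usual tail domain, fell to a lesser degree. It was at 66.1 to 110 CPM, median 104, in FL-HER2 at day 10 and at 34.4 to 62.6 CPM, median 42.5, at day 22, with no overlap (-1.26 ± 0.16, adjusted p = 1.52e-08). In p95HER2 it was at 54.0 to 88.8 CPM, median 64.2, at day 10 and at 23.5 to 84.9 CPM, median 32.2, at day 22 (-0.99 ± 0.15, adjusted p = 1.72e-06). A skin-high library, p95HER2 day 22 replicate 3, held the 84.9 CPM and made the ranges overlap.

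Krt18, the type I partner of Krt8, fell slightly. Its range was 334 to 577 CPM around a median of 395 in FL-HER2 at day 10 and 234 to 356 CPM around 276 at day 22 (-0.69 ± 0.11, adjusted p = 3.97e-06). In p95HER2 it was 371 to 703 CPM around 505 and 301 to 415 CPM around 357 (-0.58 ± 0.11, adjusted p = 6.81e-05). The ranges overlapped in both constructs. Krt8 itself was at medians of 602 and 583 CPM in FL-HER2 and of 616 and 622 CPM in p95HER2, and all 39 libraries lay between 459 and 752 CPM. Its log2 change with time was -0.15 in FL-HER2 (95% interval -0.29 to -0.02, adjusted p = 0.0571) and -0.06 in p95HER2 (-0.19 to 0.07, adjusted p = 0.562). In FL-HER2 the fall of Krt8 passed the threshold in 5 of 39 fits that left out 1 library. Cdh1 was likewise close to level over time (-0.07 ± 0.05 with adjusted p = 0.252 for FL-HER2, -0.06 ± 0.05 with adjusted p = 0.335 for p95HER2). Epcam was not called in FL-HER2 (-0.10 ± 0.08, adjusted p = 0.276) and rose slightly in p95HER2 (0.25 ± 0.08, adjusted p = 0.00836). Both genes were singled out after their values had been seen.

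**Figure D2:**
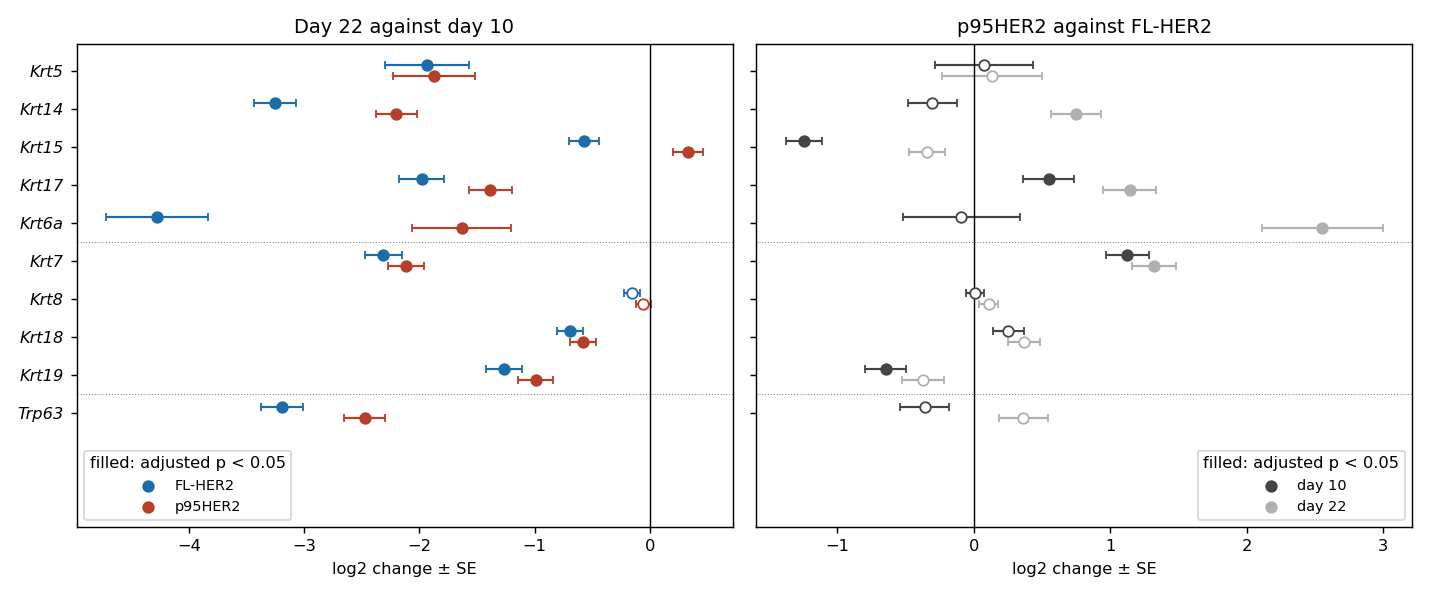
Log2 change of each gene from day 10 to day 22 in FL-HER2 and p95HER2 (left) and from FL-HER2 to p95HER2 at days 10 and 22 (right), with bars of 1 SE and filled points for adjusted p under 0.05. In the left panel every basal keratin but Krt15 lies at or below -1.38 in both constructs, and in the right panel Krt7 lies above 1 at both days.

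Between the constructs at day 10, p95HER2 tumors held more Krt7 and slightly more Krt17, and less Krt15 and Krt19, than FL-HER2 tumors. Thus 4 of the 10 genes were called, 2 higher and 2 lower, against 41.3% of all tested genes, 15.2% higher and 26.1% lower. This share is near the background. Krt7 was 2.18-fold higher, at a log2 change of 1.13 ± 0.16 (adjusted p = 7.21e-07), and the lowest p95HER2 library, at 186 CPM, lay above the highest FL-HER2 library, at 131 CPM. Krt15 was 2.37-fold lower (-1.24 ± 0.13, adjusted p = 2.09e-09), with the p95HER2 libraries at 62.6 CPM or less and the FL-HER2 libraries at 76.3 CPM or more. These were the only genes of the set whose construct ranges were apart at day 10. The share of all tested genes with such ranges is not given here for either day, so this is only a description.

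Krt19 was lower (-0.64 ± 0.15, adjusted p = 0.000822) and Krt17 higher (0.55 ± 0.19, adjusted p = 0.0187), with overlapping ranges for both. Krt17 was not called without the skin-high libraries (0.56, adjusted p = 0.104) or with the digits term (0.37, adjusted p = 0.522), nor was Krt19 with the digits term (-0.41, adjusted p = 0.336). Krt7 and Krt15 passed the test in every alternative fit. For Krt8 the log2 change was 0.01, with a 95% interval of -0.12 to 0.14. Krt5, Krt14, Krt6a, Krt18 and Trp63 had changes of 0.08, -0.30, -0.09, 0.25 and -0.36, with adjusted p from 0.0655 to 0.882. In a fit of the day 10 groups alone, Krt14 and Trp63 were called lower (adjusted p = 0.0252 and 0.0247), and Trp63 also with voom (-0.31, adjusted p = 0.0349).

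At day 22, 4 of the 10 genes were higher in p95HER2 by limma, while 4.52% of all tested genes were called, 2.98% higher and 1.54% lower. None was called lower, and Krt15 and Krt19 were lower at unadjusted p of 0.0143 and 0.0223. Krt6a, at a median of 1.29 CPM against 0.336 CPM, differed most, by 2.55 ± 0.44 (adjusted p = 0.000202). Krt7 was 2.50-fold higher (1.32 ± 0.16, adjusted p = 3.72e-07) and Krt17 2.21-fold higher (1.14 ± 0.19, adjusted p = 0.000152). Krt14 was 1.68-fold higher (0.75 ± 0.18, adjusted p = 0.0126), and its call was lost in a fit of the day 22 groups alone (adjusted p = 0.0603) and without the skin-high libraries (0.53, adjusted p = 0.226). The construct ranges overlapped for every gene of the set at this day.

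For Krt18 the change at day 22 was 0.37 ± 0.11 (adjusted p = 0.0543), which passed the threshold in 10 of 39 fits that left out 1 library. Krt19, at -0.37 ± 0.16 (adjusted p = 0.183), passed only without p95HER2 day 22 replicate 3 (adjusted p = 0.00958). The changes of Krt5, Krt8, Krt15 and Trp63 were 0.14, 0.11, -0.34 and 0.36, with adjusted p from 0.145 to 0.893. The comparisons between days and between constructs share groups, so their values for a gene are not independent.

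The difference between the constructs itself changed between day 10 and day 22 for 4 of the 10 genes, all towards p95HER2, while 19.6% of all tested genes were called and 13.5% in this direction. In other terms, these genes fell less with time in p95HER2 than in FL-HER2, or rose in the case of Krt15. The change was 2.65 ± 0.62 for Krt6a (adjusted p = 0.00251), 1.05 ± 0.26 for Krt14 (adjusted p = 0.00383) and 0.90 ± 0.19 for Krt15 (adjusted p = 0.000880). It was 0.72 ± 0.25 for Trp63 (adjusted p = 0.0404), which was lost in 18 of 39 fits that left out 1 library and had an adjusted p from 0.0149 to 0.214 over all alternatives. Krt14 and Krt15 were not called with the digits term (0.73, adjusted p = 0.315, and 0.63, adjusted p = 0.210), and Krt6a stayed called. None of the 4 luminal keratins passed this test (changes of 0.10 to 0.27, unadjusted p from 0.216 to 0.475, adjusted p from 0.388 to 0.644), and neither did Krt5 (0.06, adjusted p = 0.948) or Krt17 (0.60, adjusted p = 0.113).

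In the order of the group medians, most neighbouring groups overlapped. Ranges of neighbours were apart between FL-HER2 at days 10 and 22 for Krt5, and between p95HER2 at days 10 and 22 for Krt14 and Trp63. For Krt7 they were apart between p95HER2 and FL-HER2 at day 10, and between FL-HER2 at day 10 and p95HER2 at day 22. Neighbouring ranges overlapped at every step for Krt6a, Krt15, Krt17, Krt8, Krt18 and Krt19. Krt14, Krt6a and Trp63 shared 1 order, with FL-HER2 day 10 highest, then p95HER2 day 10, p95HER2 day 22 and FL-HER2 day 22.

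Per kilobase of the principal transcript, Krt8 and Krt18 dominated the set in every group. Their median levels in FL-HER2 at day 10 were 308 and 275 CPM per kb, followed by Krt14 at 95.8, Krt19 at 65.9, Krt15 at 55.5, Krt7 at 25.5, Krt5 at 10.3, Krt17 at 4.53 and Krt6a at 1.82 CPM per kb. Of the summed level per kb of the 9 keratins, Krt8 and Krt18 made up 69.8% ± 2.83 in FL-HER2 at day 10 (SD, n = 10) and 84.4% ± 2.93 at day 22 (n = 9). In p95HER2 their share was 74.9% ± 2.04 at day 10 and 85.5% ± 2.62 at day 22 (n = 10 each). The 5 basal keratins made up 19.9% ± 2.0 and 9.62% ± 1.91 in FL-HER2 and 14.1% ± 1.72 and 8.82% ± 1.83 in p95HER2 at the same times. Krt7 made up 3.03% ± 0.40 and 1.02% ± 0.36 in FL-HER2 and 6.44% ± 0.54 and 2.13% ± 0.39 in p95HER2. The principal transcript used for Krt7, the longest so tagged, has 4094 bases, against 1437 to 2278 for the other keratins. With a shorter transcript its level per kb and its share would be higher, its rank could be higher, and the other shares would be lower.

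The pairs also shifted within themselves. The ratio of Krt8 to Krt18 per kb was 1.08 ± 0.14 in FL-HER2 at day 10 and 1.57 ± 0.13 at day 22, with no overlap between 0.855 to 1.27 and 1.35 to 1.71. In p95HER2 it was 0.913 ± 0.096 and 1.31 ± 0.09, also with no overlap. The ratio of Krt14 to Krt5 per kb was 8.93 ± 3.29 and 3.56 ± 1.62 in FL-HER2 and 6.63 ± 2.31 and 5.46 ± 2.25 in p95HER2, with overlapping ranges. These ratios are given as descriptions.

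The mean log2 value of the basal keratins minus that of the luminal keratins was -3.10 ± 0.33 in FL-HER2 at day 10 and -4.40 ± 0.43 at day 22. In p95HER2 it was -3.49 ± 0.25 at day 10 and -3.91 ± 0.55 at day 22. The FL-HER2 libraries of the 2 days did not overlap (-3.55 to -2.48 against -4.91 to -3.88), and those of p95HER2 did (-3.81 to -3.18 against -4.63 to -2.82). This score gives each keratin equal weight whatever its level, and no test was made of it.

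**Figure D3:**
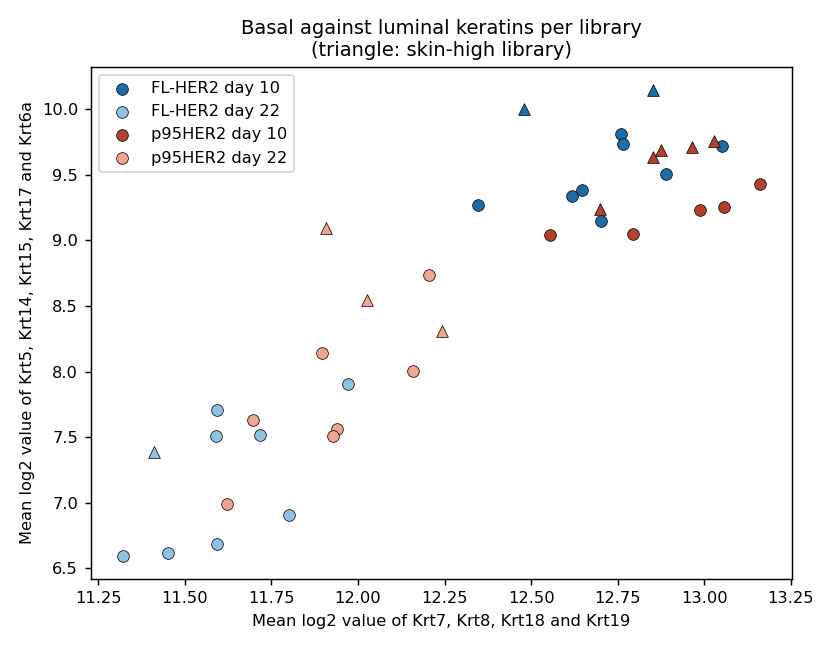
Mean log2 value of the 5 basal keratins against that of the 4 luminal keratins, with 1 point per library and triangles for the skin-high libraries. Day 10 libraries lie at the upper right and day 22 libraries at the lower left, and the 3 skin-high p95HER2 day 22 libraries have high basal values for their group, among them the highest, 9.09.

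Skin-high libraries differed from the others of their group in Krt5 more than in Trp63 or Krt14. Krt5 was at 52.4 and 69.3 CPM in the 2 skin-high FL-HER2 day 10 libraries and at 17.1 to 26.3 CPM in the other 8. In p95HER2 it was at 26.7 to 52.0 CPM against 16.1 to 24.9 CPM at day 10, and at 13.5 to 28.3 CPM against 2.59 to 9.57 CPM at day 22. The ranges were apart in all 3 cases, and the single skin-high FL-HER2 day 22 library, at 11.1 CPM, lay within the others. Krt6a was apart in FL-HER2 at day 10 (10.3 and 14.6 CPM against 2.25 to 5.93 CPM), as was Krt17 (8.40 and 10.0 CPM against 4.07 to 8.13 CPM). Krt14 overlapped in every group, at 152 and 153 CPM against 115 to 205 CPM in FL-HER2 at day 10. Trp63 overlapped in FL-HER2 at day 10 (26.3 and 28.5 CPM against 25.1 to 43.1 CPM) and in both p95HER2 groups, and its skin-high FL-HER2 day 22 library had the lowest value, 1.92 CPM. Without the skin-high libraries, the direction of the Krt5 difference between the constructs was opposite at both days (-0.10 at day 10 and -0.33 at day 22), and neither passed the test with or without them.

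**Figure D4:**
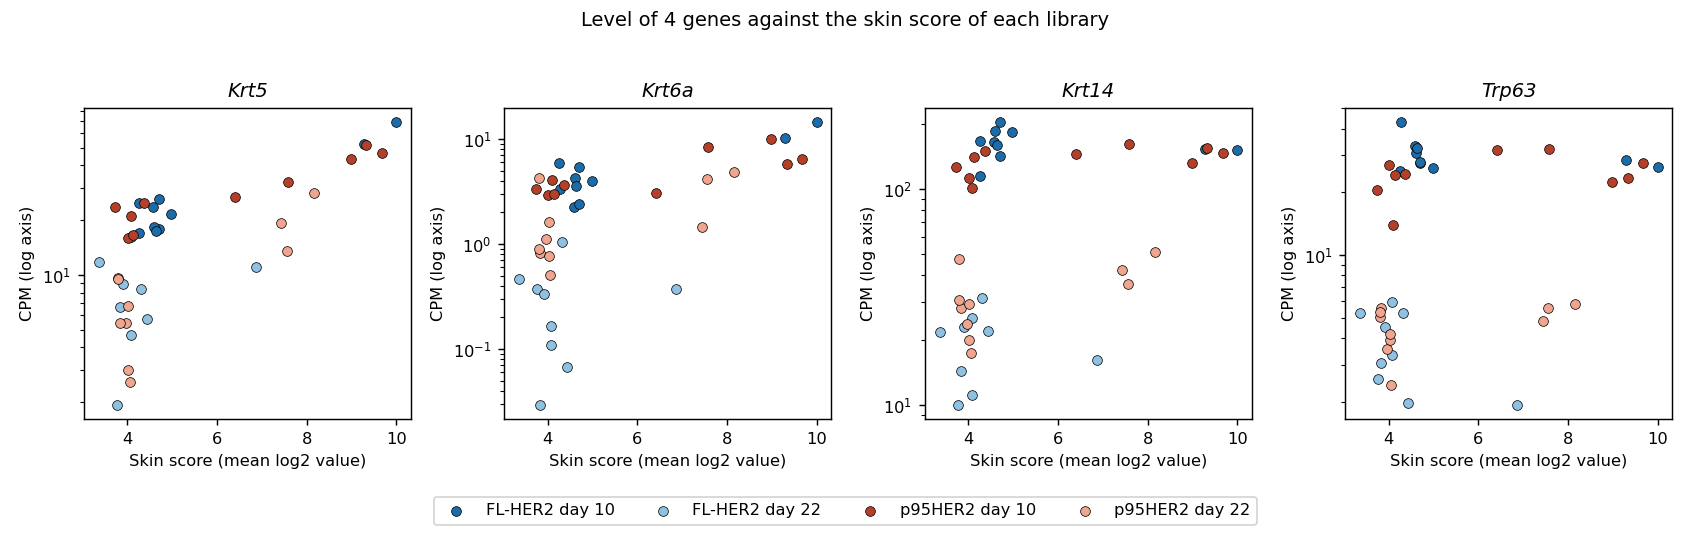
Level of Krt5, Krt6a, Krt14 and Trp63 (CPM, log axis) against the skin score of each library, the mean log2 value of 9 tested skin genes, with 1 point per library in the colour of its group. Krt5 is highest at high scores within each day 10 group, while Krt14 and Trp63 separate by day at low and high scores alike.

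Among 36 other keratin genes listed, all in the table, 7 passed the filter (Krt1, Krt10, Krt16, Krt23, Krt75, Krt79 and Krt80). Of these, Krt1, Krt10 and Krt79 are also genes of the skin score, and Krt1 ran from 0 to 205 CPM in FL-HER2 at day 10. In FL-HER2 4 of the 7 were lower and 1 was higher at day 22, against 30.6% lower and 20.7% higher among all tested genes. In p95HER2 3 were lower and 1 was higher, against 18.6% lower and 16.6% higher among all tested genes. Krt75, a type II keratin known from the hair follicle, fell from a median of 6.93 to 0.720 CPM in FL-HER2 (-3.23 ± 0.22, adjusted p = 1.41e-14) and from 4.24 to 0.419 CPM in p95HER2 (-3.36 ± 0.22, adjusted p = 3.23e-15). Krt16, a partner of Krt6a in stressed epithelium, also fell (-3.31 ± 0.43 and -1.75 ± 0.42, adjusted p = 3.71e-08 and 0.000891). It was higher in p95HER2 at day 22 (2.56 ± 0.43, adjusted p = 0.000115) and, narrowly, at day 10 (1.003 ± 0.42, adjusted p = 0.0497), where Krt6a was not called. At day 22 Krt16 was at 0.0270 to 0.322 CPM, median 0.146, in FL-HER2 and at a median of 0.843 CPM in p95HER2. The sizes of its fall in FL-HER2 and of its day 22 difference depend on the added 1 at such levels. Krt80 fell by a smaller step (-1.42 ± 0.19 and -1.06 ± 0.18, adjusted p = 6.17e-08 and 1.33e-05). Krt23, a type I keratin, rose instead from 7.87 to 37.8 CPM in FL-HER2 (2.15 ± 0.18, adjusted p = 1.29e-12) and from 7.01 to 46.6 CPM in p95HER2 (2.63 ± 0.17, adjusted p = 5.32e-15). Krt6b was too low to be tested, with medians of at most 0.521 CPM.

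Basal and myoepithelial genes other than keratins were mostly lower at day 22 as well. Of 20 tested genes of the 22 listed, 14 fell and 2 rose in FL-HER2, and 14 fell and 1 rose in p95HER2, with medians of -1.02 and -0.59, while 30.6% and 18.6% of all tested genes fell. Col17a1, a hemidesmosome collagen, fell, with log2 changes of -2.35 ± 0.19 and -1.90 ± 0.18 (adjusted p = 5.72e-13 and 8.36e-11). Igfbp5, a secreted binder of insulin-like growth factors, fell, with log2 changes of -1.15 ± 0.10 and -0.80 ± 0.10 (adjusted p = 1.42e-11 and 4.62e-08). Lama3, a laminin chain of epithelial basement membranes, stood out between the constructs. It was higher in p95HER2 by 2.78 ± 0.15 at day 10 and 3.41 ± 0.16 at day 22 (adjusted p = 2.67e-17 and 1.84e-19). Between the constructs 5 genes of this list were higher and 5 lower at day 10, near the 41.3% called among all tested genes. At day 22, 5 were higher, with 2.98% of all tested genes higher.

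Of 20 genes known as p63 targets, all tested, 11 were lower and 3 higher at day 22 in FL-HER2, and 10 were lower and 4 higher in p95HER2. Their median log2 changes were -0.21 and -0.28, and 30.6% and 18.6% of all tested genes were lower. Pkp1, a desmosomal plaque protein, fell, with log2 changes of -2.12 ± 0.17 and -2.13 ± 0.16 (adjusted p = 4.33e-13 and 2.30e-13). Fgfr2, a growth factor receptor, fell, with log2 changes of -1.69 ± 0.14 and -1.03 ± 0.13 (adjusted p = 1.11e-12 and 8.09e-08). Itga3, an integrin subunit that binds laminins, fell, with log2 changes of -0.75 ± 0.08 and -1.24 ± 0.08 (adjusted p = 4.30e-10 and 1.67e-15) and was higher in p95HER2 at both days (1.39 ± 0.08 and 0.90 ± 0.08). At day 10, 6 of the 20 were higher and 4 lower in p95HER2, with 41.3% of all tested genes called, and at day 22, 5 were higher, with 2.98% of all tested genes higher.

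Luminal genes other than keratins moved in both directions. Of 24 tested genes of 25 listed, 8 rose and 7 fell over time in FL-HER2, where 20.7% of all tested genes rose and 30.6% fell. In p95HER2, 8 rose and 4 fell, where 16.6% of all tested genes rose and 18.6% fell. Kit, the receptor that marks luminal progenitors, rose by 0.78 ± 0.11 and 1.17 ± 0.10 (adjusted p = 1.24e-07 and 1.33e-11), and Esr1, the estrogen receptor, fell, with log2 changes of -0.99 ± 0.10 and -0.87 ± 0.10 (adjusted p = 2.43e-10 and 4.70e-09). Cited1, a transcriptional coactivator, rose in both constructs (0.39 ± 0.16 and 1.43 ± 0.16, adjusted p = 0.0414 and 1.80e-09). Tspan8, a tetraspanin of luminal cells, fell in FL-HER2 (-1.65 ± 0.21, adjusted p = 3.26e-08), and its change in p95HER2 was 0.21 ± 0.21 (adjusted p = 0.467). Between the constructs 3 genes of this list were higher and 8 lower in p95HER2 at day 10, and 1 was higher at day 22, shares near the 41.3% and 4.52% of all tested genes called.

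Among 17 keratin partners and regulators, all tested, 9 fell and 2 rose in FL-HER2 between the days, and 8 fell and 2 rose in p95HER2, while 30.6% and 18.6% of all tested genes fell. Plec, the linker plectin, which ties keratin filaments to hemidesmosomes, fell, with log2 changes of -0.85 ± 0.09 and -0.75 ± 0.09 (adjusted p = 7.59e-10 and 9.48e-09). Klf4, a transcription factor of differentiating epithelium, fell, with log2 changes of -1.25 ± 0.11 and -0.70 ± 0.11 (adjusted p = 9.12e-12 and 1.94e-06). Tfap2c, which encodes a factor of the AP-2 family, rose by 0.69 ± 0.07 and 0.64 ± 0.07 (adjusted p = 1.14e-10 and 6.33e-10). Between the constructs 4 were higher and 4 lower in p95HER2 at day 10, near the 41.3% called among all tested genes. At day 22, 2 were higher, with 2.98% of all tested genes higher.

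Within groups, the genes most like each profile were sought over the 28 libraries that were not skin-high, after each group's mean had been subtracted. These values describe libraries that share tissue makeup and carry no test. The mean of the basal keratins was followed most closely by Col17a1 (Pearson r = 0.82, Spearman rho = 0.79), Wnt7b (0.79 and 0.78) and Anxa8 (0.75 and 0.70). The mean of the luminal keratins was followed by Muc1 (0.81 and 0.76), Pdgfa (0.76 and 0.69) and Gpx4 (0.76 and 0.65). Trp63 was followed by Plch2 (0.74 and 0.70), Col17a1 (0.73 and 0.66) and Syde1 (0.70 and 0.65). Without the 2 libraries farthest from the median of the profile, Pearson r for these 9 pairs was between 0.60 and 0.82.

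Among the 10 genes themselves, the pair Krt8 and Krt18 varied together within groups (r = 0.87), as did Krt5 and Krt14 (0.79). Krt7 varied with basal and luminal keratins, at 0.79 with Krt14, 0.72 with Krt17, 0.64 with Krt6a, 0.62 with Krt18 and 0.59 with Krt8. Its r was 0.52 with Krt5, 0.40 with Krt19 and 0.11 with Krt15. Trp63 had r of 0.59 with both Krt5 and Krt17, 0.51 with Krt14, 0.42 with Krt6a, 0.39 with Krt7, 0.07 with Krt15, -0.02 with Krt19, -0.05 with Krt18 and -0.07 with Krt8. Krt15 was at 0.02 with Krt17.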

How the data were processed

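Poly(A) RNA of 39 PB2 tumors was sequenced in directional libraries, per the labels' protocols. Per the submitters' processing notes, the tools were STAR 2.4.2a and DESeq2 and the build mm10. Not given in these sources are the counter, annotation, strandedness and handling of multiple hits. The table, called CPM by its name, holds the authors' deposited log2 values, and these equal log2(normalized count + 1), with normalization by 1 factor per library. Undoing the log2 gave whole multiples of 1 step per library for 100% of values (tolerance 0.001 reads, largest distance 2.70e-08). Reads recovered in this way were used for CPM, and the deposited log2 values for tests.

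The 13650 genes that reached 1 CPM in 9 or more libraries entered limma 3.58.1 (R 4.3.3, lmFit and eBayes with a trend, 1 coefficient per group, all 39 libraries) at a Benjamini-Hochberg adjusted p under 0.05 over all tested genes. SE come from this fit, and 95% intervals were computed from the change and its SE by a normal approximation. The plan assumed CPM, so the deposited log2 scale with its pseudocount of 1 replaced it. Medians, ranges and shares were computed with pandas 2.3.3. At these depths 1 CPM stands for over 20 reads in each library. Replicate numbers are only names. No 2 libraries had identical values.

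The 10 genes and all lists were chosen with earlier results of these data known. All 10 are named. From each list at most 4 members are named, those with the smallest adjusted p over the 5 contrasts, and 1 gene that this rule takes is not reported here. The 3 genes of highest within-group r are named per profile. Promoter sequences are from RefSeq (GRCm38.p6), gene positions and principal transcripts from GENCODE M21. Alternatives were no filter, 5 CPM, a pseudocount of 5, log2(CPM + 1), median-of-ratios factors, quantile normalization, only the groups compared, voom, no skin-high libraries, skin score, muscle score or number of digits as a term, and leaving out each library.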

Additional observations from a re-analysis of the deposited data

Results flagged for a closer look

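In 4 of 40 gene and group combinations, 1 library lay far from the others, which chance gives in about 1 of 20 groups. Krt15 was at 62.6 CPM in p95HER2 day 10 replicate 1, above the rest of its group. FL-HER2 day 10 replicate 9 had both the lowest Krt19 of its group, 66.1 CPM, and the highest Trp63, 43.1 CPM. Trp63 was lowest, at 13.9 CPM, in p95HER2 day 10 replicate 6. None of these was a skin-high library.

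The p95HER2 effect differed between day 10 and day 22 by 2.65 on the log2 scale for Krt6a, by 1.05 for Krt14, by 0.90 for Krt15 and by 0.72 for Trp63, each past the threshold of the limma test of the difference. For Trp63 the call was lost in 18 of 39 fits that left out 1 library.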

How the results depend on the processing

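The falls of Krt5, Krt14, Krt17, Krt6a, Krt7, Krt18, Krt19 and Trp63 with time kept their direction and passed the threshold in both constructs in every alternative run, as did the differences of Krt7 between the constructs at both days and of Krt15 at day 10. Over the alternatives other than leaving out a library, 13 single-gene values changed sign, 19 lost their call and 13 gained 1. Changes of sign were confined to changes not called. For Krt5 at day 10 they were -0.10 without skin-high libraries, -0.11 with the skin score, -0.22 with the muscle score and -0.32 with the digits term. For Krt5 at day 22 they were -0.33 without skin-high libraries and -0.094 with the skin score. For Krt5 between days the value was -0.23 without skin-high libraries. Krt6a at day 10 was 0.30 with quantile normalization, Krt14 at day 10 was 0.017 and Krt7 between days -0.0055 with the digits term, and Krt8 with time in p95HER2 was 0.0097 with log2(CPM + 1), 0.022 with quantile normalization and 0.0099 with voom.

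Leaving out each library gave -0.021 to 0.23 for Krt5, -0.21 to 0.082 for Krt6a and -0.032 to 0.040 for Krt8 between the constructs at day 10, -0.10 to 0.32 for Krt5 at day 22 and -0.18 to 0.24 for Krt5 between days. Trp63 between days was lost without a filter, with log2(CPM + 1), median-of-ratios factors, voom, the muscle score or the digits term, and without skin-high libraries, at adjusted p up to 0.214. Krt18 gained a call under 5 settings at day 10 and 5 at day 22.

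With the digits term 2 of the 10 genes were called at day 10 and 1 between days, and 1375 of all genes at day 10, 2953 with time in FL-HER2 and 233 between days. By construction that term leaves 2 libraries to set the FL-HER2 day 10 level. The muscle score left 3200 genes at day 10. Without skin-high libraries 228 genes were called at day 22 and 1659 between days, from 28 libraries. Leaving out 1 library gave 339 to 892 genes at day 22 against 617, with under 1.5-fold fewer in all cases but FL-HER2 replicates 1 (339), 3 (370) and 8 (411) and p95HER2 replicates 4 (408), 9 (405) and 10 (355). The basal minus luminal value of FL-HER2 at day 22 was -3.79 on log2(CPM + 1), and the cause was not tested. Low counts limit Krt6a, with as few as 1 read in a library. No paired analysis was possible because the labels give tumor numbers and no replicate numbers shared between groups.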
